A study of Mus musculus with 6 samples.

Results

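Wnt signalling genes were read here in embryoid bodies that hold spinal motor neurons. The genes were chosen by name and not by level, although earlier results of these data were known. They were Wnt ligands, Frizzled receptors, the co-receptors Lrp5 and Lrp6, and secreted antagonists with an Sfrp or Dkk name. The scaffold proteins Axin1 and Axin2 and the nuclear factors Lef1, Tcf7, Tcf7l1 and Tcf7l2 were also taken. Of 19613 rows in the table, 44 carried such a name, namely 19 ligands, 9 Frizzled receptors, 2 co-receptors, 8 antagonists, 2 axins and 4 TCF/LEF factors. Each of 6 Affymetrix exon arrays carried RNA of 1 sample. The embryoid bodies were grown from mouse HBG3 embryonic stem cells (so named in the series text, HGB3 in the methods), in which Hb9 (Mnx1) regulatory sequence drives a green fluorescent protein, and they were patterned with retinoic acid and a Hedgehog agonist before exposure. After 6 days of differentiation, all 6 cultures received 5% serum for 24 h from male carrier mice of the Huntington's disease strain B6CBA-Tg(HDexon1)62Gpb/3J, which express a fragment of human huntingtin, at 10 weeks of age and before symptoms. The fluid is plasma in the sample labels and serum in the methods. There was 1 group and no control arrays were analysed here, so the values give the state of the pathway under this serum and no response to it.

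Wnt proteins are lipid-modified secreted ligands that bind Frizzled receptors on nearby cells. With Lrp5 or Lrp6 at the membrane, binding stops the axin complex from destroying beta-catenin, which then enters the nucleus and activates target genes through TCF/LEF factors. Other ligands act through Frizzled and co-receptors such as Ryk and Ror2 on cell polarity and axon growth without beta-catenin. In the spinal cord, Wnt1 and Wnt3a come from the roof plate and pattern dorsal cell types, while Wnt4, Wnt5a and Wnt7b are known from more ventral or widespread territories. Sfrp proteins resemble the ligand-binding part of Frizzled and bind Wnt outside the cell, whereas Dkk1, Dkk2 and Dkk4 bind Lrp5 and Lrp6.

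A set of promoters is shown from ligands above and below background, picked as examples and not as typical of either call. Wnt4 was clearly above background and Wnt8b was the ligand furthest below it, while Wnt9b and Wnt3 are neighbours on chromosome 11 that fell on opposite sides. Each line gives the 250 bases before the annotated start from RefSeq (GRCm38.p6), read 5′ to 3′ on the strand of the gene, with every CpG dinucleotide in capitals.
Wnt4 (chr4:137277385-137277634, plus strand): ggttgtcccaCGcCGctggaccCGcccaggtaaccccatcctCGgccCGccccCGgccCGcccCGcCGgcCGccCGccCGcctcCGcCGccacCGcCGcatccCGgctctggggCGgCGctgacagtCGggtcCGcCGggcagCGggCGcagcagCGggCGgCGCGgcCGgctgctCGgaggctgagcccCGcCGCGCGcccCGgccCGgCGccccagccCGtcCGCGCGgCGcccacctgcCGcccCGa
Wnt8b (chr19:44493222-44493471, plus strand): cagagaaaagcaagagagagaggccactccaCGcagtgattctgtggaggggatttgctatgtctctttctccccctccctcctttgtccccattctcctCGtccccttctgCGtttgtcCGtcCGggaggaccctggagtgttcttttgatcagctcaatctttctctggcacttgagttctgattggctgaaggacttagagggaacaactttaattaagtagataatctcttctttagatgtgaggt
Wnt9b (chr11:103749822-103750071, minus strand): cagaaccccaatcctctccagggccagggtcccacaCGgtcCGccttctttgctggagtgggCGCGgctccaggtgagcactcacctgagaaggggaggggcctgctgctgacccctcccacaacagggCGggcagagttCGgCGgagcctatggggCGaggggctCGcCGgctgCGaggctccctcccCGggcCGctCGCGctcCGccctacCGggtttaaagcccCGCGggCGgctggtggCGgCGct
Wnt3 (chr11:103773925-103774174, plus strand): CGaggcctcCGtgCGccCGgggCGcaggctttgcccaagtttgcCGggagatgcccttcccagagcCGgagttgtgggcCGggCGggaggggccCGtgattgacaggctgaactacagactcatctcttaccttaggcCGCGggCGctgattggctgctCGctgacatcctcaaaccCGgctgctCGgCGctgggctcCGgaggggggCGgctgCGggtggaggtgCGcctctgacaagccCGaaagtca

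The window of Wnt4 held 44 CpG dinucleotides and that of Wnt8b held 5, while those of Wnt9b and Wnt3 held 22 each. Promoter windows were found for 29 of the 44 genes by symbol, and where a gene had several starts the mean over its windows was used. Their median was 25 CpG for the 21 genes above background and 16.5 for the 8 that were not. Among ligands alone, the medians were 31 for the 10 above background and 22 for the 5 that were not, with ranges of 9 to 48 and 5 to 26.5 that overlapped. Over all array genes with a window, the medians were 16 above background and 3 otherwise. These counts are a description and were not tested. A TCF/LEF motif, taken as CTTTGAT or CTTTGTT on either strand, occurred in 5 of 37 windows of these genes or 13.5%, against 8.06% of all 32851 windows. The matches were in windows of Wnt5b, Wnt11, Fzd7, Dkk1 and Tcf7l2.

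All 9 Frizzled receptors, both co-receptors, both axins and all 4 TCF/LEF factors were above background in these cultures, as were 14 of 19 ligands and 4 of 8 antagonists. Background was set by the 1032 olfactory receptor rows, since these genes are used mainly in olfactory tissue. On each array the background level was the 95th percentile of these rows, which ranged from 7.26 in replicate 8 to 7.60 in replicate 5 on the log2 intensity scale. Each gene was called above or below this level by limma on the distance over the 6 arrays, with Benjamini-Hochberg adjustment over all rows at 0.05. The p-value sets the distance against its spread between arrays. Some olfactory receptor rows lie above the level by its definition, so a small p-value does not by itself show expression. By this call 35 of the 44 genes were above background, 8 were below and 1, Wnt11, could not be told apart from it. The share above was 79.5%, beside 62.6% of all rows, and 32.9% of all rows were below. The median mean level was 8.21 for these genes and 8.26 for all rows. The call depended on where background was set. Against the 99th percentile of the olfactory receptor rows, 8.02 to 8.58 over the arrays, 16 of the 44 genes were above, beside 43.7% of all rows, and 21 were below. Against the 95th percentile of vomeronasal receptor rows, another family used in sensory tissue, 39 were above, beside 73.9% of all rows. Means are given with the SD over the 6 arrays, on the log2 intensity scale. Probes differ in affinity between genes, so the levels of different genes do not rank transcript amounts, and fewer cells that express a gene cannot be told apart from less RNA per cell.

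**Figure D1:**
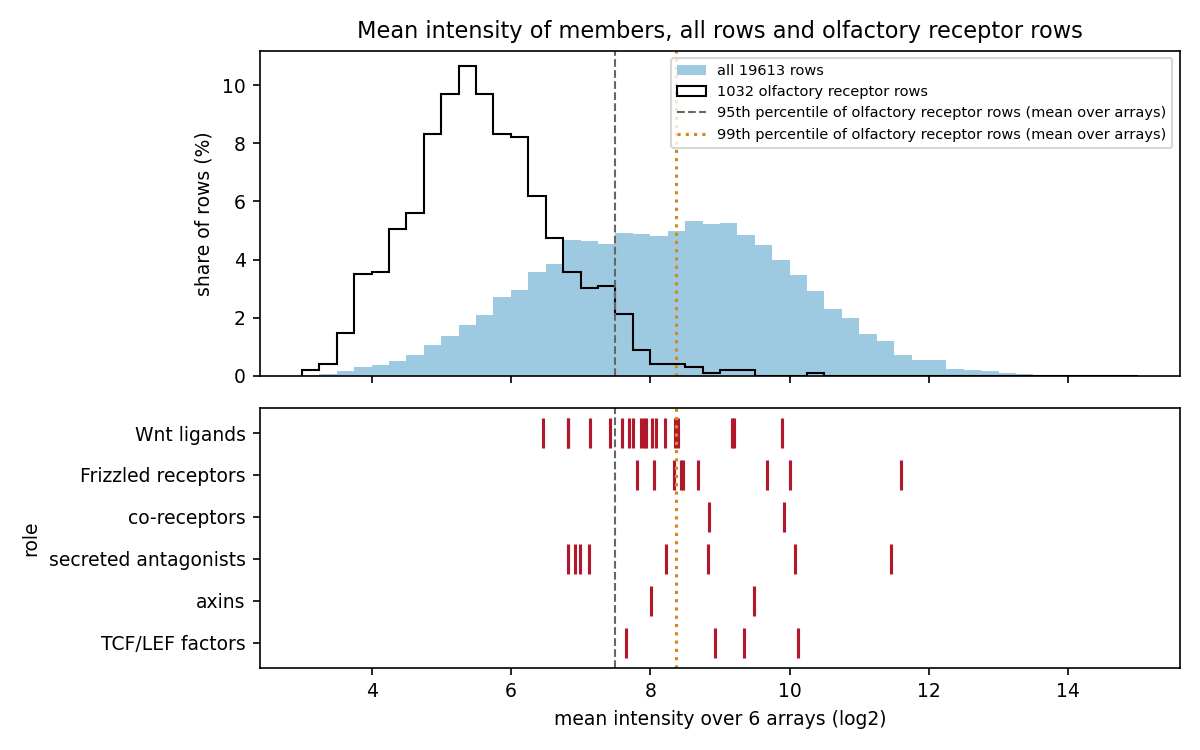
Mean log2 intensity over 6 arrays: the upper panel shows the share of all 19613 rows (blue) and of the 1032 olfactory receptor rows (black line), and each red tick in the lower panel is 1 Wnt pathway gene, by role. The dashed and dotted lines are the 95th and 99th percentiles of the olfactory receptor rows, and all 9 Frizzled receptors lie right of the dashed line while 4 of 8 antagonists lie left of it.

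Among the ligands, Wnt4, Wnt5a and Wnt9b were above both background levels on every array. Against the upper level, 3 of 19 ligands were thus above and 13 were below, beside 43.7% of all rows above. Wnt4, which draws spinal axons and also acts in kidney and gonad development, had a lowest log2 intensity of 9.13, a median of 9.22 and a highest value of 9.27 (mean 9.21 ± 0.058). Wnt5a, the classic ligand of the branch that acts without beta-catenin, had a lowest value of 9.14, a median of 9.17 and a highest value of 9.24 (mean 9.18 ± 0.039). The values of these ligands lay well clear of background, at distances of 1.72 ± 0.059 for Wnt4 and 1.69 ± 0.062 for Wnt5a (log2 units, SE, n = 6, limma adjusted p 6.24e-11 and 1.01e-10). Wnt9b, known from kidney tubule formation and face development, ran from 9.70 through a median of 9.94 to 9.95 (mean 9.90 ± 0.096), and its distance of 2.41 ± 0.046 corresponded to an intensity 5.30 times the background level (limma adjusted p 4.96e-13, n = 6). Replicate 8 was the lowest array for Wnt9b, and the other 5 arrays lay within a narrow range above it. In the RefSeq gene table the interval of Wnt9b overlaps that of its neighbour Wnt3, and the build of the array annotation is not stated, so whether their exons share signal was not tested. The same holds for Wnt2b, Wnt5b, Fzd4 and Tcf7, whose intervals overlap those of St7l, Fbxl14, Tmem135 and Skp1.

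A second set of 11 ligands was above the 95th percentile level but not above the 99th. Wnt7a, a ligand of developing neurons and synapses, had a lowest value of 8.32, a median of 8.41 and a highest value of 8.48 (mean 8.40 ± 0.064). For Wnt7b, which is known to act on dendrites and blood vessels of the nervous system, the levels ran from 8.29 through a median of 8.35 to 8.42 (mean 8.35 ± 0.046). Wnt5b, the close paralogue of Wnt5a, ran from 8.03 through a median of 8.22 to 8.34 (mean 8.21 ± 0.10). These 3 ligands lay 0.91, 0.86 and 0.72 above the lower level in log2 units and were not told apart from the upper level (limma adjusted p 0.771, 0.846 and 0.0843, n = 6). The other 8 ligands of the set were below the upper level. Wnt10a, a ligand of teeth and skin appendages, ran from 7.78 through a median of 8.11 to 8.28 (mean 8.08 ± 0.18). Wnt9a, known from joints and blood stem cells, ran from 7.77 through a median of 8.09 to 8.20 (mean 8.02 ± 0.18), and Wnt16, known from bone, had the widest spread of any of the 44 genes, from 7.28 through a median of 8.05 to 8.19 (mean 7.94 ± 0.33). Wnt10b, a ligand studied in fat and bone, ran from 7.51 through a median of 7.97 to 8.05 (mean 7.90 ± 0.20). In all 4 of these ligands replicate 8 was the lowest array, and in Wnt16 it was 0.68 log2 units below the next array.

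The remaining ligands of this set were closer to background. Wnt8a, a ligand of early embryos, ran from 7.76 through a median of 7.88 to 7.96 (mean 7.86 ± 0.08). Wnt3a, the roof plate ligand that is widely used to activate beta-catenin, ran from 7.53 through a median of 7.76 to 7.90 (mean 7.76 ± 0.14), and Wnt6, known from epithelia that form tubules, ran from 7.51 through a median of 7.69 to 7.83 (mean 7.69 ± 0.13). Wnt2b, which is known from eye and limb development, ran from 7.44 through a median of 7.58 to 7.75 (mean 7.60 ± 0.13). All 6 arrays of each lay above their own background level, but the distances were small, at 0.37 ± 0.047 for Wnt8a, 0.27 ± 0.042 for Wnt3a, 0.20 ± 0.049 for Wnt6 and 0.11 ± 0.045 for Wnt2b (log2 units, SE, n = 6). The limma adjusted p for Wnt2b was 0.0322, and the call was lost without replicate 4, 5 or 6, at distances of 0.11, 0.10 and 0.10. By mean level, 97.9% of the olfactory receptor rows lay below Wnt8a, 97.5% below Wnt3a, 97.2% below Wnt6 and 96.5% below Wnt2b.

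Wnt11, a ligand of cell movement in the early embryo, could not be told apart from background. Its levels ran from 7.27 through a median of 7.41 to 7.63 (mean 7.43 ± 0.12), and 3 of 6 arrays were above their own background level (limma adjusted p 0.259). The ligands below background on all 6 arrays were Wnt1, Wnt2, Wnt3 and Wnt8b. Their means were 6.82 ± 0.17 for Wnt1, the ligand of the midbrain border and the dorsal midline, 6.82 ± 0.20 for Wnt2, a ligand of the lung, 7.13 ± 0.14 for Wnt3, which the embryo needs for gastrulation, and 6.46 ± 0.19 for Wnt8b, a ligand of the forebrain (log2 intensity, SD, n = 6). A value below background does not show that a gene was silent. Of the neighbouring ligand pairs in the genome, Wnt9b and Wnt3 and likewise Wnt10b and Wnt1 were split by the call, while both members were above background in the pairs Wnt3a and Wnt9a and Wnt6 and Wnt10a.

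**Figure D2:**
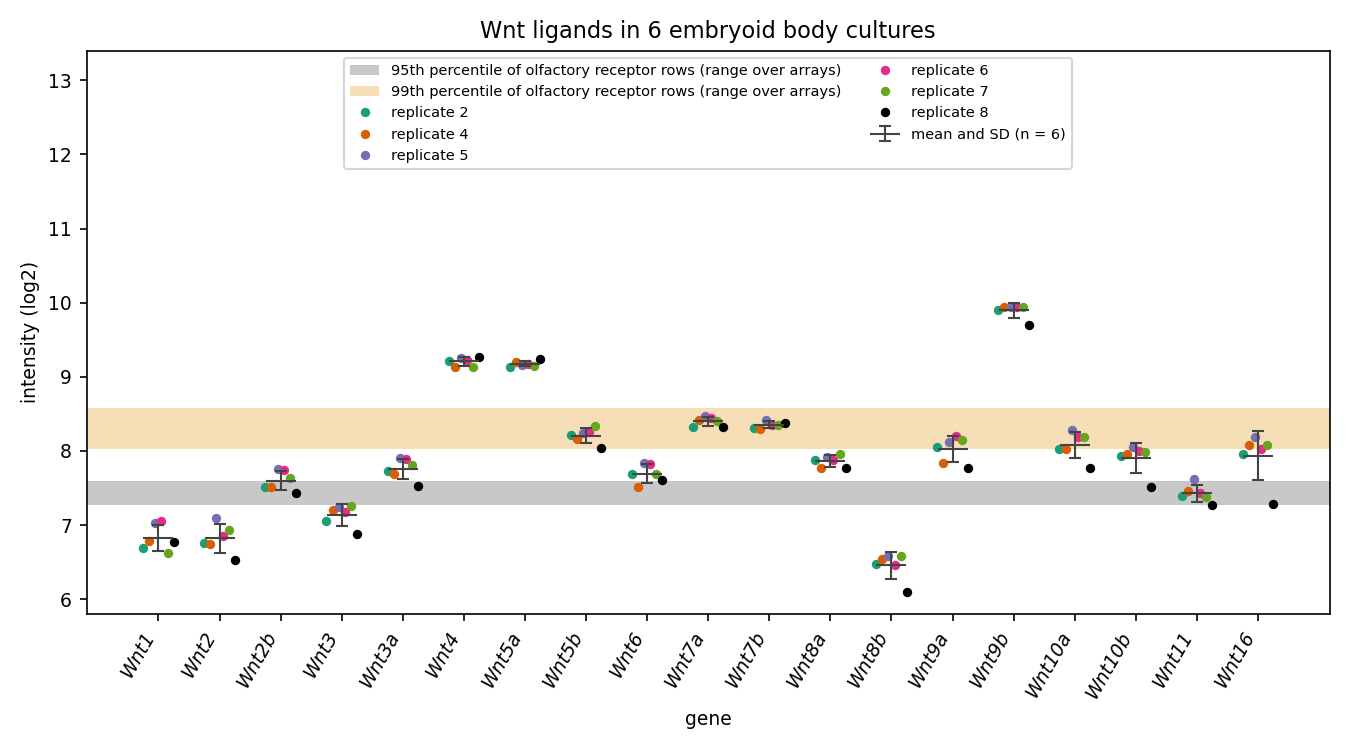
Log2 intensity of the 19 Wnt ligands on each of 6 arrays (coloured points), with the mean and SD over arrays (bars). Grey and orange bands show the range over arrays of the 95th and 99th percentiles of olfactory receptor rows; Wnt4, Wnt5a and Wnt9b lie above both bands, and Wnt1, Wnt2, Wnt3 and Wnt8b have means below the grey band.

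Markers of the cell types that the embryoid bodies could hold were read beside the ligands, from lists chosen with earlier results of these data known. Of 8 markers of the roof plate and dorsal spinal cord, 4 were above background and 1, the growth factor Gdf7, was above the upper level, at 9.88 ± 0.14 (log2 intensity, SD, n = 6). The roof plate factor Lmx1a had 7.92 ± 0.17, and Msx2, Bmp4 and Atoh1 were below background. The floor plate markers Shh, Foxa2, Ntn1, Sulf1 and Spon1 were above both levels, with means from 10.53 for Foxa2 to 12.60 for Spon1. All 7 motor neuron markers and all 5 progenitor markers were above background, beside 62.6% of all rows. Mnx1, the gene behind the Hb9 reporter, was not told apart from the upper level, at a mean of 8.48, and the other 6 motor neuron markers were above it. Of 6 pluripotency markers and 8 markers of mesoderm and endoderm, 2 and 4 were above background, and Nanog at 8.94 and Col1a1 at 8.64 were above both levels. Gata4, Gata6 and Myod1 were above the lower level alone, at distances of 0.36, 0.58 and 0.24 log2 units. Of the other mesoderm and endoderm markers, 3 were below background and 1 was not told apart. The 3 distances lay within the range of the ligands above the lower level alone. Whether calls this close to background reflect expression was not tested. Which of these cells made each Wnt gene was not tested.

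All 9 Frizzled receptors in the table were above background (Fzd10 was not analysed here), and Fzd1, Fzd2, Fzd3 and Fzd7 were above both levels. Of all rows, 62.6% were above the lower level and 43.7% above the upper one, so 4 of 9 was near the share of all rows. Fzd3, which guides axons and orients cells through planar cell polarity, had a lowest log2 intensity of 11.56, a median of 11.59 and a highest value of 11.63 (mean 11.59 ± 0.027). Its SD of 0.027 was the smallest of the 44 genes, so the arrays hardly differed. Fzd2, a receptor for Wnt5a among others, had a lowest value of 9.94, a median of 9.996 and a highest value of 10.15 (mean 10.01 ± 0.075), with replicate 5 apart from the rest, and Fzd7, a receptor of stem and progenitor cells, ran from 9.54 through a median of 9.66 to 9.83 (mean 9.67 ± 0.12). Fzd1, the third receptor of the subfamily with Fzd2 and Fzd7, ran from 8.58 through a median of 8.68 to 8.77 (mean 8.68 ± 0.073). The distances to background were 4.11 ± 0.052, 2.52 ± 0.057, 2.18 ± 0.075 and 1.19 ± 0.048 for Fzd3, Fzd2, Fzd7 and Fzd1 (log2 units, SE, n = 6, limma adjusted p 4.28e-14, 1.71e-12, 5.58e-11 and 2.26e-10).

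The other 5 receptors were called above the lower level alone. Fzd5 and Fzd8 form a subfamily that can signal through beta-catenin, and they ran from 8.18 through a median of 8.501 to 8.64 (mean 8.47 ± 0.16) and from 8.36 through a median of 8.41 to 8.56 (mean 8.44 ± 0.08). Fzd6, the relative of Fzd3 that orients hair follicles, ran from 8.27 through a median of 8.35 to 8.41 (mean 8.34 ± 0.052). These 3 were not told apart from the upper level (limma adjusted p 0.279, 0.486 and 0.769, n = 6), although Fzd5 exceeded it on 6 of 6 arrays. Fzd4, the receptor of retinal blood vessels, ran from 7.90 through a median of 8.05 to 8.16 (mean 8.05 ± 0.095). Fzd9, studied in hippocampus and bone, was the receptor closest to background, from 7.56 through a median of 7.81 to 8.11 (mean 7.81 ± 0.23), and replicate 6 lay below its own background level while the other 5 arrays lay above theirs. Its distance was 0.33 ± 0.077 (log2 units, SE, n = 6, limma adjusted p 0.00174). The co-receptors Lrp5 and Lrp6, which carry the beta-catenin branch, were both above both levels on every array. Lrp6 had a lowest value of 9.82, a median of 9.90 and a highest value of 10.03 (mean 9.91 ± 0.071), and Lrp5 ran from 8.69 through a median of 8.83 to 8.94 (mean 8.84 ± 0.092).

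Secreted antagonists with an Sfrp or Dkk name were above background in 4 of 8 cases, beside 62.6% of all rows. Of the 4 genes with an Sfrp name in the table, Sfrp1, Sfrp2 and Sfrp4 were above both levels and Sfrp5 was below background. Frzb, of the same family under another name, is given below with the further antagonists. Sfrp1, which is made by neural progenitors, had a lowest log2 intensity of 11.28, a median of 11.45 and a highest value of 11.62 (mean 11.45 ± 0.14), at a distance of 3.96 ± 0.076 from background (log2 units, SE, n = 6, limma adjusted p 5.3e-13). Its SD of 0.14 was wide for a gene so far above background, with replicates 5 and 2 lowest and replicates 7 and 8 highest. Sfrp2 ran from 10.02 through a median of 10.05 to 10.21 (mean 10.08 ± 0.072), with replicate 8 apart at the top, and Sfrp4, known from bone, ran from 8.60 through a median of 8.89 to 9.01 (mean 8.84 ± 0.15). Of the 4 Dkk genes, Dkk3 was above background, from 8.09 through a median of 8.20 to 8.34 (mean 8.22 ± 0.096), and was not told apart from the upper level (limma adjusted p 0.136, n = 6). Dkk3 is the divergent member of the family that does not act on Lrp5 and Lrp6 in the way of the others. The means of Dkk1, Dkk2 and Dkk4, which do bind these co-receptors, were 7.12 ± 0.12, 6.998 ± 0.22 and 6.81 ± 0.11, and that of Sfrp5 was 6.92 ± 0.16 (log2 intensity, SD, n = 6). All 4 lay below their own background level on each of 6 arrays. Against vomeronasal receptor rows, Dkk1 and Dkk2 were instead above background, at distances of 0.29 and 0.17.

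Inside the cell, both axins and all 4 TCF/LEF factors were above background, beside 62.6% of all rows. Axin1, the constant scaffold of the complex that degrades beta-catenin, ran from 9.30 through a median of 9.47 to 9.72 (mean 9.48 ± 0.16) on the log2 intensity scale, and replicate 5 was highest. Axin2, the scaffold that beta-catenin itself induces, ran from 7.94 through a median of 8.03 to 8.05 (mean 8.01 ± 0.042), above the lower level on 6 of 6 arrays and below the upper one on 6 of 6. Its distance to background was 0.53 ± 0.056, and the SD of the distance over arrays was 0.13 (log2 units, SE, n = 6, limma adjusted p 2.46e-06). Tcf7l1, the factor that mostly represses targets in stem cells, ran from 10.04 through a median of 10.13 to 10.16 (mean 10.12 ± 0.042). Tcf7l2, the main partner of beta-catenin in the gut, ran from 9.28 through a median of 9.34 to 9.42 (mean 9.34 ± 0.047), and Tcf7, a factor best known from T cells, ran from 8.78 through a median of 8.92 to 9.13 (mean 8.93 ± 0.11). All 3 were above both levels on 6 of 6 arrays. Lef1, an activator that is itself a target of the pathway, ran from 7.52 through a median of 7.66 to 7.77 (mean 7.65 ± 0.11), and its distance of 0.16 ± 0.045 was small (SE, n = 6, limma adjusted p 0.00488).

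**Figure D3:**
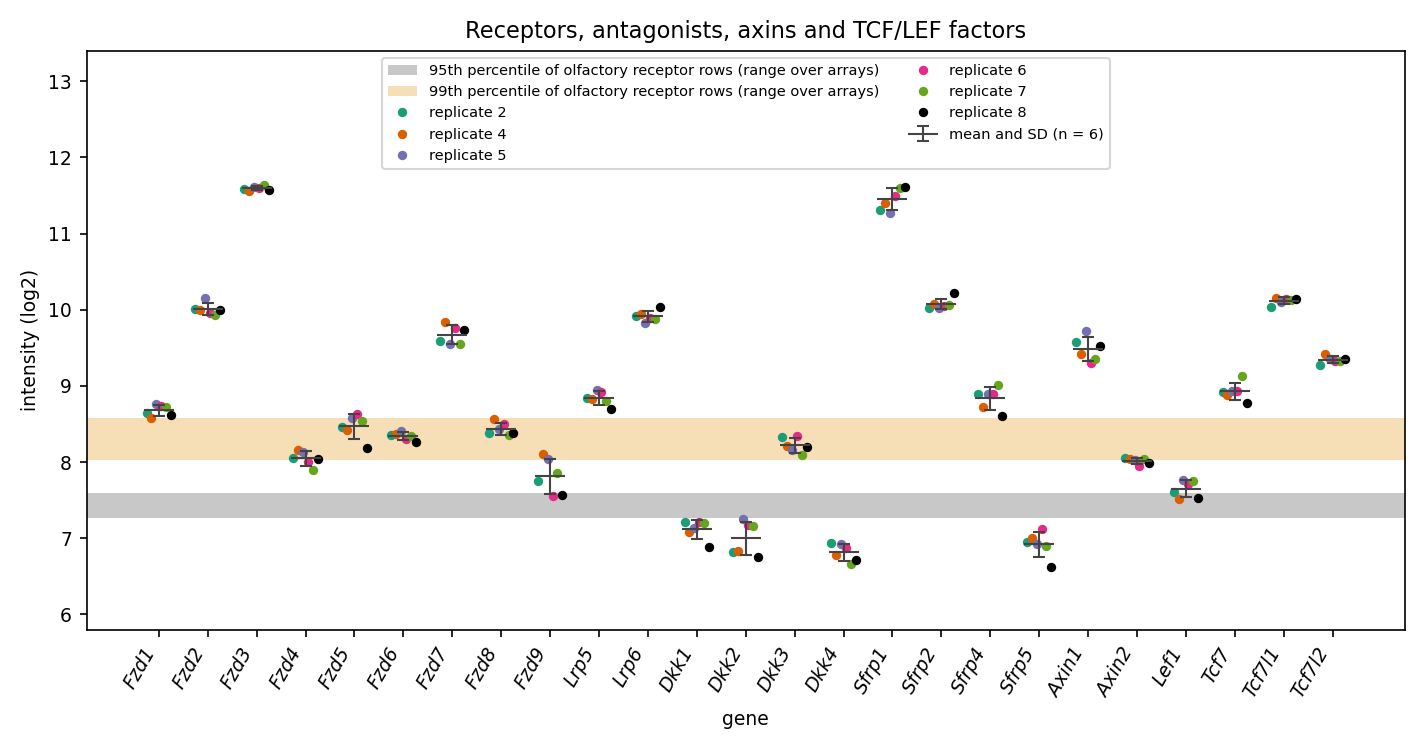
Log2 intensity of the Frizzled receptors, co-receptors, antagonists, axins and TCF/LEF factors on each of 6 arrays (coloured points), with the mean and SD over arrays (bars). Bands are as for the ligands: 13 of these 25 genes were called above both levels, 4 antagonists have means below the grey band, and Fzd9 has 1 array below its background level.

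The other genes of the pathway were read from lists of ligand release, modulators, signal transfer and targets. The lists were chosen with earlier results of these data known, so their shares beside all rows are a description. Of 63 genes that are not among the 44, 54 were above background, 8 were below and 1 could not be told apart, beside 62.6% of all rows above. Both genes of ligand release were above both levels, with 10.15 ± 0.083 for Porcn, the enzyme that attaches the lipid, and 11.34 ± 0.028 for Wls, which carries ligands to the cell surface (log2 intensity, SD, n = 6). Of 9 R-spondins, their receptors and the ubiquitin ligases they inhibit, 6 were above background. Lgr4 at 10.27 ± 0.074, the ligase Znrf3 at 9.09 ± 0.053 and Rspo1 at 8.79 ± 0.13 were above both levels, Rspo3 and Rspo4 were below background at 7.13 and 7.29, and Lgr5, a stem cell marker, could not be told apart at 7.44. Rspo2 at 7.65, Lgr6 at 7.73 and Rnf43 at 8.13 were above the lower level alone.

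Of 6 other receptors, 5 were above background, beside 62.6% of all rows. Ryk at 10.27 ± 0.044, which receives Wnt5a on axons, the polarity receptor Ptk7 at 8.77 ± 0.042 and Kremen1 at 9.41 ± 0.012, the partner of Dkk1, were above both levels (log2 intensity, SD, n = 6). Ror2 at 8.41 and Kremen2 at 7.94 were above the lower level alone, and the muscle receptor gene Musk was below background at 6.48. Of 10 further antagonists, 6 were above background and 3 above both levels, beside 62.6% and 43.7% of all rows. Draxin at 8.998 ± 0.035, a guidance protein of spinal axons, Apcdd1 at 9.38 ± 0.07 and Shisa2 at 8.73 ± 0.059 were above both levels, and Notum at 8.19, Sost at 7.94 and Frzb at 7.68 above the lower one. Wif1, Cer1, Sostdc1 and Dkkl1 were below background, at 7.04, 6.76, 6.92 and 7.27.

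All 19 genes of the beta-catenin pathway inside the cell were above background and 17 were above both levels, the exceptions being Amer1 at 8.504 and Tle2 at 8.36. They included Ctnnb1, which encodes beta-catenin, at 12.21 ± 0.028, Gsk3b, the kinase that marks it for decay, at 11.92 ± 0.04, and Dvl3, which relays the receptor signal, at 11.57 ± 0.07 (log2 intensity, SD, n = 6). All 7 planar cell polarity genes were above background, with Vangl2 at 11.58 ± 0.054 and Celsr2 at 11.16 ± 0.098, and Prickle1 at 8.53 was the 1 gene of them not above the upper level. Of 18 target genes, which include Axin2, Lef1 and Tcf7, 16 were above background and 7 were above both levels, beside 62.6% and 43.7% of all rows. Those 7 were Tcf7, Nkd1 at 9.67 ± 0.048, which restrains the pathway, the cell cycle gene Ccnd1 at 9.85 ± 0.091, Cdx1 at 8.61 ± 0.14, Tnfrsf19 at 8.77 ± 0.082, Znrf3 and Apcdd1. Sp5, a direct target, had 7.83 ± 0.16, T, the mesoderm factor Brachyury, had 8.37 ± 0.19, Myc had 8.47 ± 0.11 and Ascl2 was below background at 6.86. Many of these targets also answer to other signals, and no array without Wnt activity was analysed here, so their levels do not measure pathway activity.

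**Figure D4:**
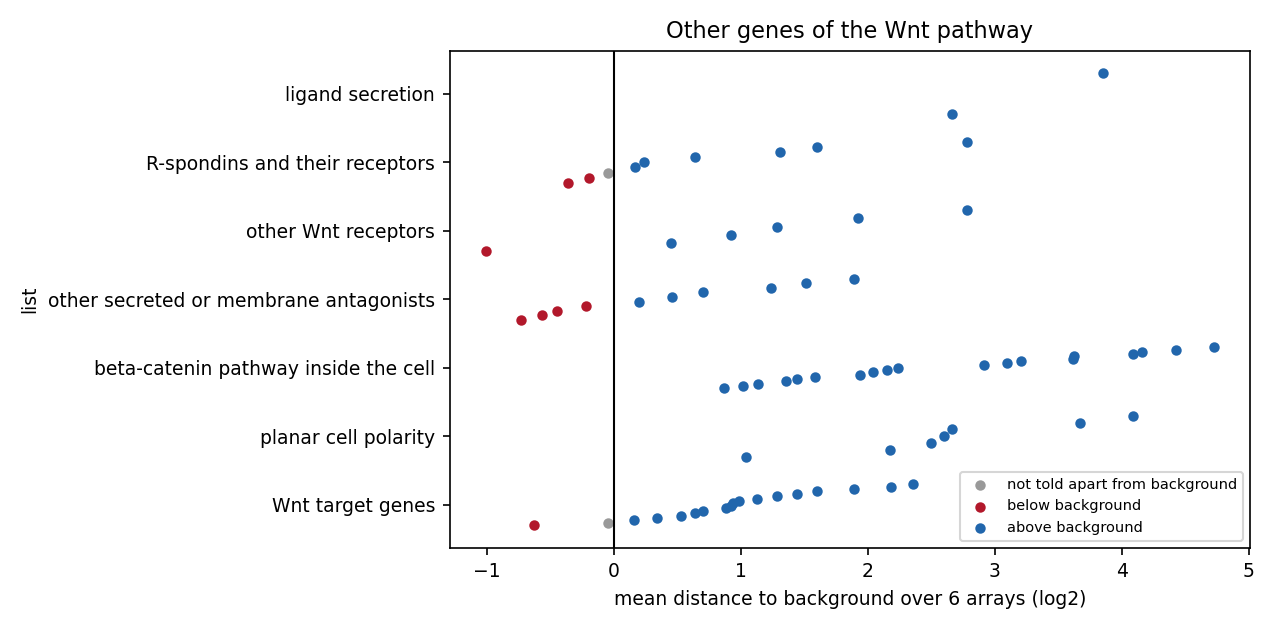
Mean distance to background over 6 arrays in log2 units (horizontal axis) for each matched gene of 7 lists of the Wnt pathway, coloured by the limma call. All 19 genes of the beta-catenin list and all 7 planar cell polarity genes lie right of 0, while 4 of 10 further antagonists lie left of it.

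The spread between arrays depended on how close a gene was to background. The median SD over the 6 arrays was 0.096 for the 35 genes above background, beside 0.074 for all rows above background. It was 0.13 for the 28 genes that lay below background or less than 1 log2 unit above it and 0.074 for the 16 genes farther above. Among the 28, replicate 8 was the lowest array for 17, or 60.7%, and replicate 5 the highest for 13. Over all rows in the same range replicate 8 was lowest for 52.0%. The background level itself was lowest in replicate 8 and highest in replicate 5. When each array was taken relative to its own background level, the median SD of the 28 genes was 0.099, and without replicate 8 the median SD of their log2 intensities was 0.092. For the 16 genes farther from background the median SD was 0.15 relative to background, above the 0.074 of the intensities themselves. The 5 genes above background with the largest SD were Wnt16 at 0.33, Fzd9 at 0.23, Wnt10b at 0.20, Wnt10a at 0.18 and Wnt9a at 0.18, all within 1 log2 unit of background. Without replicate 8 the SD was 0.085 for Wnt16 and 0.045 for Wnt10b. The part of the array background in these spreads was not tested further.

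**Figure D5:**
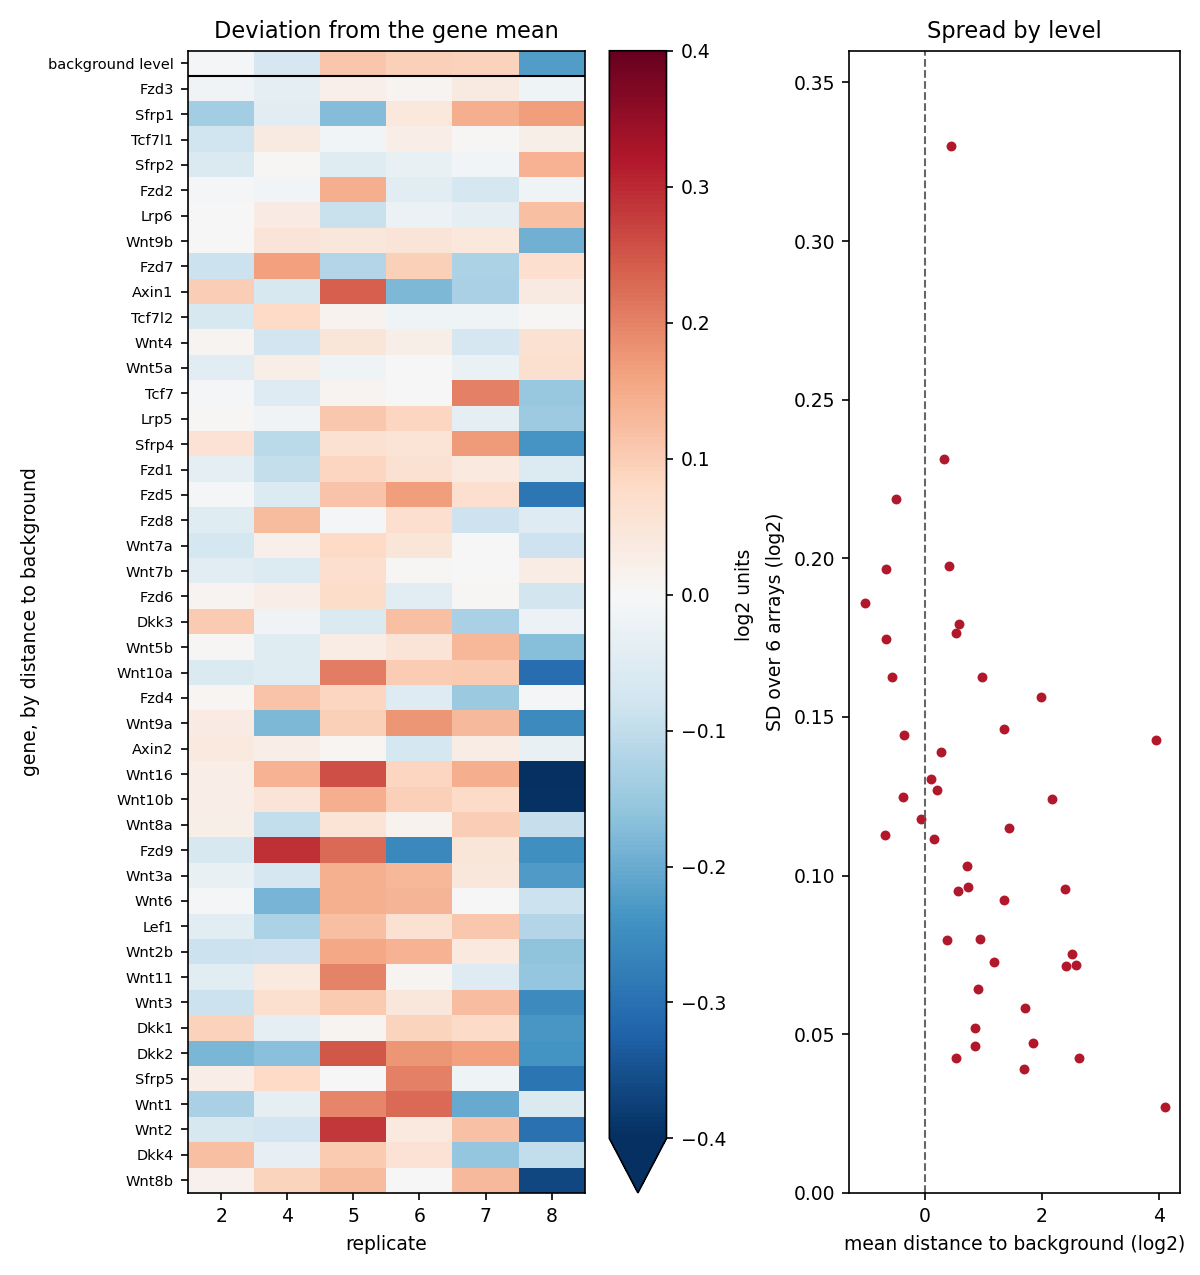
Left, deviation of each array (columns) from the mean of the gene in log2 units, for the background level (top row) and the 44 genes ordered by their mean distance to background. Right, SD over 6 arrays against that distance, 1 point per gene, with the larger SDs mostly at distances under 1; replicate 8 is blue for most genes in the lower part of the left panel.

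The study corrected genes for differences between batches of neurons with a linear model on Olig2, Mnx1, Isl1 and Lhx3, so each gene was set against the mean of these 4 genes. The mean of the 4 was lowest in replicate 7, at 9.03, and highest in replicate 5, at 9.23. By limma over 19609 rows, 0 of the 44 genes changed with it at an adjusted p of 0.05, beside 0% of all rows, and at an unadjusted p under 0.05 the counts were 0 of 44 and 683 rows or 3.48%. The exact permutation test over all 720 orders of the arrays gave 1 of 44 genes at an unadjusted p under 0.05, which was Wnt7b with a slope of 0.51 ± 0.36 log2 units per log2 unit (SE, n = 6, exact p 0.0417, limma adjusted p 0.9996). Wnt1 had the lowest limma p, with a slope of 1.596 ± 0.74 (SE, n = 6, unadjusted p 0.0696). The range of 0.20 log2 units in the 4-gene mean was narrow, and the median SE of a slope was 0.64, so the slopes were measured with little precision. The study fitted its model on assays with non-carrier serum from several batches, and ran its assays in groups that each used a different batch. The labels give no batch, so no relation was recomputed within batches. Whether these 6 arrays span more than 1 batch is not known.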

How the data were processed

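The labels place all 6 arrays in 1 group with replicate numbers 2, 4, 5, 6, 7 and 8, which only name the arrays. Whether each came from the serum of a separate mouse is not stated, so the p-values measure the spread between these samples. The deposited values are linear intensities, 1 per gene and array. The authors made them by Robust Multi-array Averaging in Aroma Affymetrix and took the mean over the exons of a gene by release 33 of the array annotation. The study removed arrays that a Grubbs test marked as outliers, and the submitters' processing notes also name Affymetrix Expression Console. Which arrays were normalized together and the genome build are not given in the sources used here. The quantile step of this method can even out real differences between arrays. Intensities were taken to log2 with no pseudocount or filter. The study's correction for motor neuron genes gave log2 ratios of measured to predicted expression. The deposited values had array medians of 296 to 311, so they are not such ratios. The table held 0 columns of other samples.

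All rows were fitted with limma 3.58.1 in R 4.3.3. The intercept of the log2 intensity minus the 95th percentile of the 1032 olfactory receptor rows of the same array gave the above-background call, and a slope on the mean of 4 motor neuron genes gave the relation to these genes. Both were tested on simulated data with each gene drawn independently on each array, where most distances were called right. No distance as small as those of Wnt2b, Lef1 and Wnt6 was set there, so calls that close to background were not tested. The slope test missed nearly all of the smaller slopes set there and many of the larger ones. The number of arrays limits the precision. By the rule for naming, each of the 44 genes is named with its mean and SD, and those above background or near it with their lowest, median and highest values. Alternatives were other background levels and rows, other scalings, a trended prior and leaving out arrays. RefSeq tables of GRCm38.p6 gave names and promoter windows, and 63 of 67 listed pathway genes outside the 44 matched, Draxin and Amer1 by synonym. Ror1, Vangl1, Prickle2 and Shisa3 were not analysed here, and 1 floor plate marker is not reported here. Members and lists were chosen with earlier results of these data known.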

Additional observations from a re-analysis of the deposited data

Results flagged for a closer look

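Among 108 sets of 6 values, from the 44 genes, 63 other pathway genes and the 4-gene mean, 7 had 1 array far from the others by the gap to its neighbour over the whole range, where 5.4 would be by chance at 1 in 20. Replicate 8 was that array in 6 of the 7. Wnt16 stood at 7.28 in replicate 8, next to 7.96, and its SD without that array was 0.085 in place of 0.33. Wnt10b stood at 7.51 in replicate 8, next to 7.93, Wnt8b at 6.09 in replicate 8, next to 6.46 and Wnt9b at 9.70 in replicate 8, next to 9.90, so that replicate 8 was the low array for 4 ligands (log2 intensity). It was the high array for Sfrp2, at 10.21 in replicate 8, next to 10.08, and for Apc, a scaffold of the beta-catenin complex, at 11.20 in replicate 8, next to 11.10. Fzd2 stood at 10.15 in replicate 5, next to 10.004, with replicate 5 as the high array. The 6 of the 44 genes among them kept their call against background without replicate 8 and without replicate 5. The background level of replicate 8 was 7.26, the lowest of the arrays. Its part in these values was not tested.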

How the results depend on the processing

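The choice of background moved the calls more than any other setting. At the 99th percentile of olfactory receptor rows the genes above background numbered 16 of 44 in place of 35, with 3 ligands in place of 14, 4 Frizzled receptors in place of 9 and 1 axin in place of 2. The share of all rows above was 43.7% in place of 62.6%. In the lists, R-spondins and their receptors gave 3 in place of 6, other receptors 3 in place of 5, other antagonists 3 in place of 6 and target genes 7 in place of 16. At this level 16 distances turned negative, in log2 units -0.77 for Wnt2b, -0.61 for Wnt3a, -0.16 for Wnt5b, -0.68 for Wnt6, -0.019 for Wnt7b, -0.51 for Wnt8a, -0.35 for Wnt9a, -0.29 for Wnt10a, -0.47 for Wnt10b, -0.43 for Wnt16, -0.32 for Fzd4, -0.029 for Fzd6, -0.56 for Fzd9, -0.15 for Dkk3, -0.36 for Axin2 and -0.72 for Lef1. At the 90th percentile 3 turned positive, 0.061 for Wnt3, 0.35 for Wnt11 and 0.048 for Dkk1, and with vomeronasal receptor rows 5 did, 0.31 for Wnt3, 0.60 for Wnt11, 0.29 for Dkk1, 0.17 for Dkk2 and 0.092 for Sfrp5. A change of sign was not always a call. At the 90th percentile Wnt3, Dkk1 and Dkk2 were not told apart from background (limma adjusted p 0.199, 0.297 and 0.199). With vomeronasal receptor rows the same held for Sfrp5, Wnt1, Wnt2 and Dkk4 (limma adjusted p 0.248, 0.971, 0.916 and 0.873). Leaving out 1 array gave 34 to 35 genes above background, and the call of Wnt2b alone was lost, without replicate 4, 5 or 6. Every array above its own background, the mean rule, the trended prior, median centring and quantile normalization each gave a count within 1.5 times 35, and centring cannot move a distance within an array. For the relation to the 4-gene mean, limma called 0 genes under each alternative and the exact permutation test, unadjusted, gave 1. The cause of the background dependence was not tested. No paired analysis was possible because there is 1 group. Signals near background limit the calls of the 19 genes between the 2 levels.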
